A study of Homo sapiens with 6 samples.

Results

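The genes of cholesterol synthesis, uptake and efflux were examined as a set of 31 genes, taken by symbol from the 29571 rows of the deposited expression table, where each had 1 row. The set holds 18 enzymes that build cholesterol, 4 regulators of the transcription factor SREBP2 (SREBF2 itself included), 4 proteins that move or store cholesterol inside the cell, and the LXR arm, with 3 genes that LXR drives and 2 receptors. The samples were cultures of DB, an established human lymphoma line of the diffuse large B-cell type, labelled DB_ZHX2 (ZHX2 cells here) or DB_ZHX2_Mut4 (Mut4 cells), with 3 libraries labelled for each. ZHX2 is a nuclear protein of the zinc-finger and homeobox class. The labels give no treatment or time and do not say what Mut4 changes. How the forms were introduced, which promoter drives them and whether the cells' own ZHX2 remained are not given in the sources used here. The design text gives pathway differences between them as the aim, and no other group of DB cells was labelled, so higher and lower always refer to these cells against each other.

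The values are FPKM, a level per gene that the authors normalized for transcript length and depth, so levels of different genes can be compared. In each group, columns 2 and 3 were column 1 multiplied by a constant: 1.05 and 1.21 for Mut4, and 1.33 and 0.897 for ZHX2, at 31 of 31 cholesterol genes within a relative tolerance of 1e-06. The 3 columns were treated as 1 sample (n = 1), so the differences below carry no replicate error and no p-value of their own. The sums of FPKM ranged from 258080 to 383426 over the 6 columns, and total read depth is unknown. The B-cell label was checked first. All 5 B-cell markers used (MS4A1, CD79A, CD79B, PAX5 and CD22) passed the filter, with levels summing to 613.2 FPKM in Mut4 against 569.6 in ZHX2 cells. Of the myeloid markers 5 of 6 had a row, summing to 4.37 and 5.56 FPKM, and only LYZ passed. The 3 T-cell and 3 fibroblast markers with a row did not pass, at sums of at most 2.04 FPKM.

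Cells make cholesterol from acetyl-CoA through mevalonate, squalene and lanosterol. When membrane sterol is low, SCAP carries SREBP2 from the endoplasmic reticulum to the Golgi, where it is cut, and the released factor enters the nucleus and switches on the synthesis and uptake genes. The INSIG proteins hold SCAP back when sterol is plentiful. Oxysterols, which accumulate when cholesterol is in excess, activate the nuclear receptors LXR, and these raise the exporters ABCA1 and ABCG1 and the ubiquitin ligase MYLIP, which removes lipoprotein receptors. In germinal centre B cells and their lymphomas the pathway supplies membrane for rapid division.

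The promoters of SREBF2, of the 4 genes with the highest ratios among those with a window (INSIG1, MYLIP, EBP and FDPS) and of the exporter ABCA1 are shown first, because the letters through which SREBP2 and LXR act can be looked for there. Each line is the 250 bases before the RefSeq gene start on GRCh38.p14, read 5′ to 3′ on the gene's strand. Capitals mark a sterol regulatory element (the 10-letter run in SREBF2), an NF-Y box (CCAAT, or ATTGG on the other strand) or, in ABCA1, a loose LXR direct repeat (NGGTNA and NGGTCA with 4 bases between them, here on the other strand).
SREBF2: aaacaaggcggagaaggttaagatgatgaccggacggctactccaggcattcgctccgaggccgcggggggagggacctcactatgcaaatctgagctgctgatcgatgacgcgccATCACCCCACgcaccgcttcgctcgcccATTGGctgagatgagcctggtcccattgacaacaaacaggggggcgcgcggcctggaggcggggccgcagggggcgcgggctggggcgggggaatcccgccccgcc
INSIG1: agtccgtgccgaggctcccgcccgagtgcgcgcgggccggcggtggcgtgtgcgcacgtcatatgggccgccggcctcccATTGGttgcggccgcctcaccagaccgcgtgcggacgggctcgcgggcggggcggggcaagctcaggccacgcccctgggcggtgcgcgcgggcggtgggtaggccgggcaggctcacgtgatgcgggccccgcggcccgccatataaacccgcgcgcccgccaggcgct
EBP: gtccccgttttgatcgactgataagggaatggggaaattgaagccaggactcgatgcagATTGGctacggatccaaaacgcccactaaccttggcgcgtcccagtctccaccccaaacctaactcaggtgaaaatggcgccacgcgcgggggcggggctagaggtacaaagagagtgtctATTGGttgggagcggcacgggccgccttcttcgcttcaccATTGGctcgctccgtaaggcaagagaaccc
FDPS: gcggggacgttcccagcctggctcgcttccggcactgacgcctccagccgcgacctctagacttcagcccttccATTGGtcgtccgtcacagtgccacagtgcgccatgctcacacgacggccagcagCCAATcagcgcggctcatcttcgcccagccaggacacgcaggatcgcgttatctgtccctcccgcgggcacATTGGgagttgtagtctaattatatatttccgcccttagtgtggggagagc
MYLIP: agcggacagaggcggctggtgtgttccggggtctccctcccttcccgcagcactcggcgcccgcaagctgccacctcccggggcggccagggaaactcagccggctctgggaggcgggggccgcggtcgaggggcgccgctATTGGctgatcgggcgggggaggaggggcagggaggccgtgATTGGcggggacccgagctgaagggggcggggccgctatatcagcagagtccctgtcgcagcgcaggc
ABCA1: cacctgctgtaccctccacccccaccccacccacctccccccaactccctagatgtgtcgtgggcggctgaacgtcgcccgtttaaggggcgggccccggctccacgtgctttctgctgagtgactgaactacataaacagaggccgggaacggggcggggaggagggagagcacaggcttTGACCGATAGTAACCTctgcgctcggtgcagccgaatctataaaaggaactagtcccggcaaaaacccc
These windows are chr22:41832855-41833104, chr7:155297628-155297877, chrX:48521558-48521807, chr1:155308616-155308865 and chr6:16128836-16129085 on the plus strand, and chr9:104928156-104928405 on the minus strand. In SREBF2 the sterol element begins 134 bases before the start, and the NF-Y box 106 bases before it. EBP and FDPS each held 3 NF-Y boxes, MYLIP held 2 and INSIG1 held 1. The ABCA1 window held no NF-Y box, and its loose LXR repeat begins 69 bases before the start. GENCODE 29, used for gene spans below, places the start further upstream for all but MYLIP of these 6 genes, so their windows overlap its spans, and that of EBP lies wholly inside.

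RefSeq windows were found for 27 of the 31 genes (37 windows, since some genes have several starts), and not for ACAT2, FDFT1, SQLE and ABCG1. The exact sterol element was in 1 of these windows, that of SREBF2, and in 5 of 12726 windows of all measured genes (0.0393%). Leaving 1 base open (TCACNCCAC) added no other cholesterol gene, while 0.880% of windows of measured genes held that form. The NF-Y box was in 22 of 37 windows (59.5%) against 33.9% of windows of measured genes. Of the 20 SREBP2-driven genes with a window 17 held it in at least 1 window, including HMGCS1, IDI1, FDPS, LSS, DHCR7 and INSIG1. This counts genes, some with several windows, so it cannot be set against the share of windows. The share of measured genes was not computed. The GC box (GGGCGG) was in 33 of 37 windows (89.2%), against 64.3%. The strict LXR repeat (AGGTCA, 4 bases, AGGTCA) was in 0 windows of either set. Its single unit (AGGTCA) was in 5.41% of cholesterol windows and 8.61% of measured ones. The loose repeat was in ABCA1 alone, against 0.173% of windows of measured genes. It was chosen after the windows were searched for the other motifs, so its shares are description only. These are counts of letters in short windows and do not show binding.

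**Figure D1:**
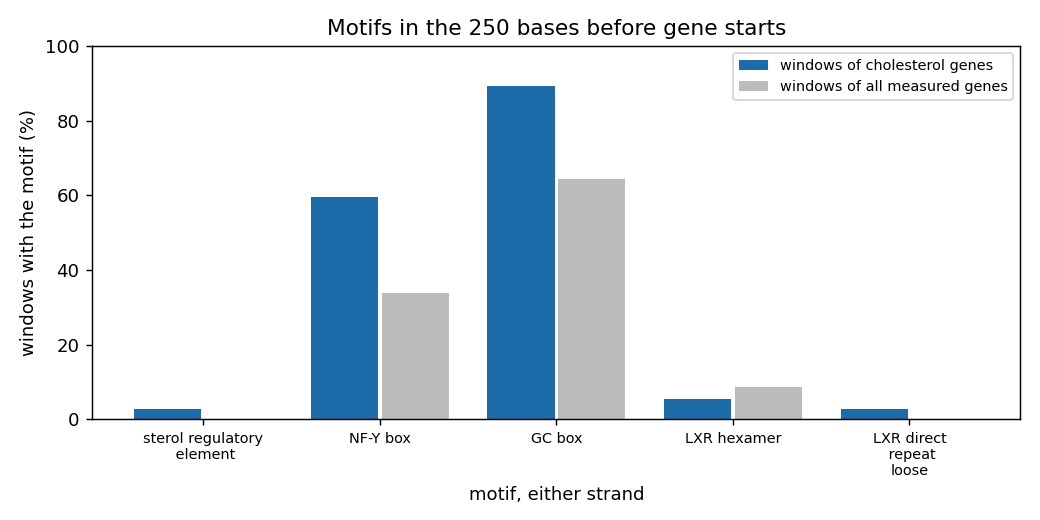
Share of promoter windows, in percent, that hold each motif on either strand, for the 37 windows of cholesterol genes (blue) and the 12726 windows of all measured genes (grey). The NF-Y box stands at 59.5% against 33.9% and the GC box at 89.2% against 64.3%, while the sterol element and the loose LXR repeat are each in 1 cholesterol window. The loose repeat was chosen after the search for the other motifs.

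A gene was counted as measured if at least 3 of the 6 columns reached 1 FPKM, which 12643 genes and 30 of the 31 cholesterol genes did. The gene below was NR1H3. ABCA1 passed through its Mut4 columns alone, so its inclusion depends on the side where it was higher. Ratios are log2(FPKM + 1) of Mut4 cells minus that of ZHX2 cells, on the mean of the 3 columns. This scale understates the ratio of low genes. Over all measured genes the median ratio was 0.023, and the central 95% lay between −0.59 and 0.59.

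The cholesterol genes differed little between the cells, and the larger differences were on the Mut4 side. At 1.5-fold, 0 of 30 were higher in Mut4 cells, against a background of 2.54% of all measured genes, and 0 lower, against 2.56%. At a smaller step, 0.32 on the log2 scale, 5 of 30 were higher, against a background of 11.8%. They were INSIG1, EBP, FDPS, ABCG1 and MYLIP. In the other direction 0 of 30 were lower by that step, against 9.42%. Ratios above 0 were found for 22 of 30 genes, against 53.8% of all measured genes, with a median of 0.17, and below 0 for 8, against 46.2%. Without ABCA1, 21 of 29 were above 0. All columns of Mut4 cells lay above all of ZHX2 cells for 4 of these 29 genes (INSIG1, EBP, ABCG1 and MYLIP) and for ABCA1, against 11.0% of all measured genes, and the reverse held for 0, against 8.86%. Because the columns of a group are multiples of one another, this overlap depends on the ratio and on the constants alone. Without ZHX2 replicate 2, 4 genes were at least 1.5-fold higher, where 5.69% of all measured genes were, and 15 passed the smaller step, where 26.7% did.

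**Figure D2:**
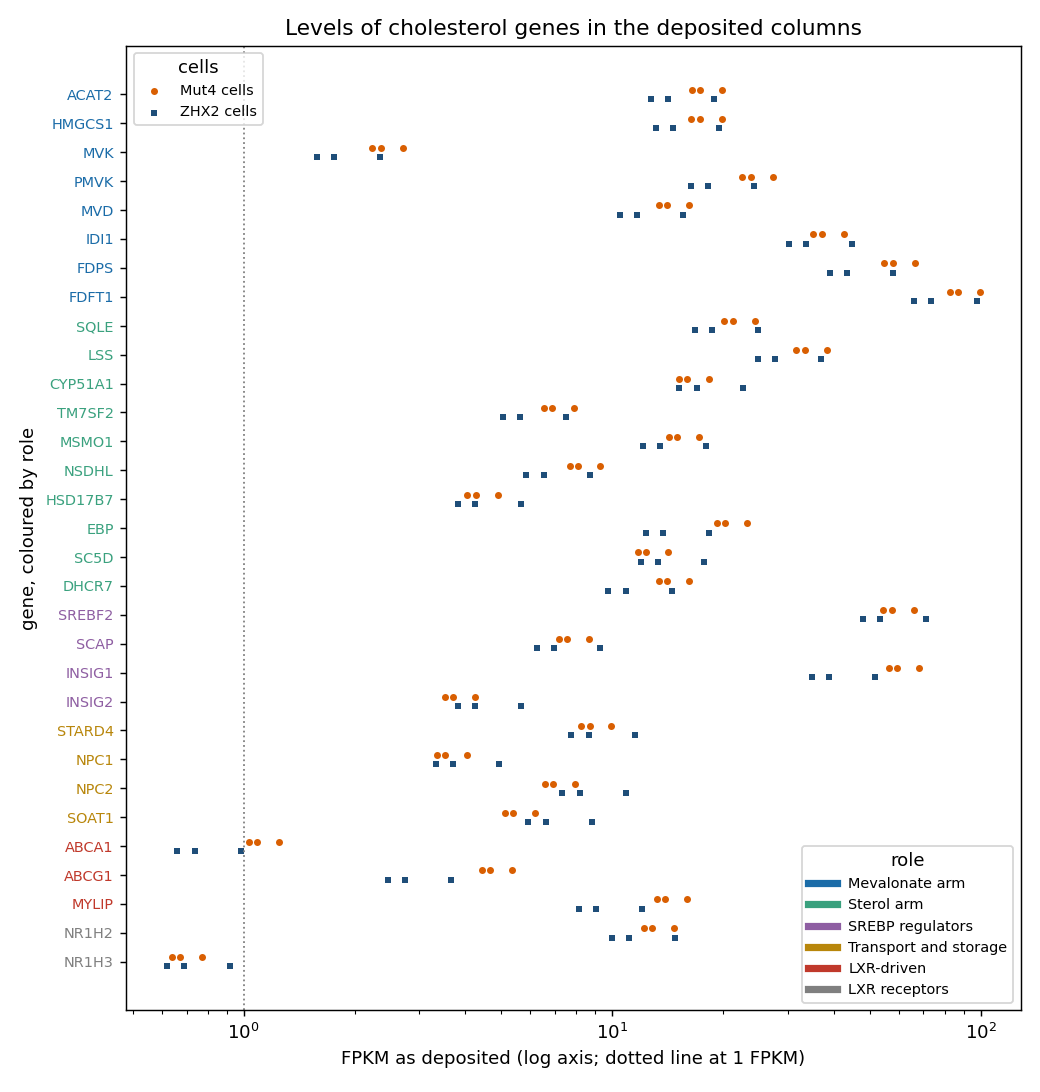
FPKM of each of the 31 genes (log axis) in the 3 columns of Mut4 cells (orange circles) and the 3 columns of ZHX2 cells (blue squares), with gene names coloured by role. Levels span from NR1H3 and ABCA1, near 1 FPKM, to FDFT1, at 65.9 to 99.6 FPKM. The columns of the groups overlap for all but INSIG1, EBP, ABCG1, MYLIP and ABCA1. Columns of a group are multiples of one another, so their spread is not replicate error.

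The arm from acetyl-CoA to squalene was slightly higher in Mut4 cells at every enzyme. All 8 genes had ratios above 0, against 53.8% of all measured genes, with a median of 0.21. Their summed level was 264.7 FPKM in Mut4 against 227.3 in ZHX2 cells. FDPS makes farnesyl diphosphate, the branch point to sterols and to protein prenylation. On the log2(FPKM + 1) scale it had the highest ratio of the arm. FDPS measured 54.8, 57.7 and 66.2 FPKM in the Mut4 columns and 43.5, 58.0 and 39.0 in the ZHX2 columns. The groups overlapped, since the highest ZHX2 column exceeded the lower columns of Mut4 cells. This reflects the ratio and the column constants, not a spread of replicates. Its ratio was 0.34 (1.27-fold), and 10.7% of measured genes had a higher one. FDPS shares 28.9% of its exon bases with RUSC1-AS1 on the opposite strand, listed at 5.63 FPKM in Mut4 against 3.57 in ZHX2 cells. The library kit marks strand, but no source used here says how strand was used in counting, and the part of the antisense reads in the FDPS ratio was not tested.

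On the log2(FPKM + 1) scale, the kinases and the decarboxylase of mevalonate had smaller ratios than FDPS. PMVK, which adds the second phosphate group, was at 24.5 FPKM in Mut4 against 19.6 in ZHX2 cells (ratio 0.31). MVK, the first kinase, was the lowest enzyme of either arm, at 2.43 and 1.90 FPKM (0.24). Without the 1 added to FPKM, the log2 ratio of MVK was 0.357, against 0.348 for FDPS, so their order depends on the scale. MVD, which decarboxylates the product to isopentenyl diphosphate, stood at 14.5 and 12.6 FPKM (0.19). The entry enzymes differed as little. ACAT2, the cytosolic thiolase, was at 17.9 and 15.3 FPKM (0.22), and its exons overlap other genes on the opposite strand. Among them are a lincRNA, over 45.8% of the exon bases of ACAT2 (0.523 FPKM in Mut4 and 0.247 in ZHX2 cells), and TCP1, over 12.5% (41.9 and 39.3 FPKM). HMGCS1, which makes HMG-CoA, was at 17.8 and 15.8 FPKM (0.17). FDFT1, squalene synthase and the first enzyme committed to sterols, had the highest level of all 31 genes, at 89.6 FPKM in Mut4 against 79.1 in ZHX2 cells (0.18). Only 2.44% of measured genes had a higher mean level. IDI1, the isopentenyl diphosphate isomerase, had the smallest ratio of the arm (38.2 and 36.2 FPKM, 0.077). It changed sign without Mut4 replicate 3 or without ZHX2 replicate 3, to −0.035 at the lowest. The median of all measured genes was then −0.044 and −0.072, so IDI1 stayed above it.

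The sterol arm, from squalene to cholesterol, was less uniform. Of 10 enzymes 7 had ratios above 0, against 53.8% of all measured genes, with a median of 0.16. The summed level was 156.3 FPKM in Mut4 against 141.3 in ZHX2 cells. EBP, the isomerase that moves the double bond within the sterol ring, stood apart from its neighbours. EBP measured 19.2, 20.2 and 23.2 FPKM in the Mut4 columns and 13.7, 18.3 and 12.3 in the ZHX2 columns. Each Mut4 column was above each ZHX2 column, which follows from the ratio and the column constants and not from replicates. The ratio was 0.47 (1.39-fold), and 632 of 12643 genes had a higher one. EBP lies on chromosome X, from 48521158 to 48528716 on GRCh38 in GENCODE 29.

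DHCR7, the reductase that completes cholesterol, came next, at 14.5 FPKM in Mut4 against 11.7 in ZHX2 cells (0.29). NSDHL, which takes part in removing methyl groups from lanosterol derivatives, was at 8.34 and 7.02 FPKM (0.22). LSS, which closes the ring to lanosterol, was at 34.4 and 29.8 FPKM (0.20), and the sterol reductase TM7SF2 at 7.08 and 6.06 FPKM (0.19). These enzymes were spread along the arm and not next to one another. SQLE, the squalene epoxidase and a rate-controlling step, was at 21.9 and 20.1 FPKM (0.12). MSMO1, the methylsterol oxidase, was at 15.5 and 14.5 FPKM (0.091). Without ZHX2 replicate 3 its ratio was −0.017, when the median of all measured genes was −0.072.

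The 3 enzymes on the other side of 0 acted at separate steps. SC5D, the desaturase that follows EBP, was at 12.8 FPKM in Mut4 against 14.4 in ZHX2 cells (−0.16). CYP51A1, the lanosterol demethylase, was at 16.5 and 18.3 FPKM (−0.14), and HSD17B7, a ketosteroid reductase, at 4.40 and 4.57 FPKM (−0.044). Without ZHX2 replicate 2, when the median of all measured genes moved to 0.17, these became 0.011, 0.034 and 0.10. HSD17B7 was at 0.0025 without Mut4 replicate 1, when that median was 0.069. HSD17B7 has a copy, HSD17B7P2, listed at 3.43 and 3.59 FPKM, so reads may be divided between them. Within a profile the constants cancel. EBP was 1.64 times the level of SC5D in Mut4 cells and 1.03 times in ZHX2 cells, a pair with the highest and lowest ratio of the arm.

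The regulators did not share a direction. INSIG1, itself a target of SREBP2 and the protein that retains SCAP, had the highest ratio among genes assigned to SREBP2. INSIG1 measured 56.3, 59.3 and 68.0 FPKM in the Mut4 columns and 38.8, 51.8 and 34.9 in the ZHX2 columns. No ZHX2 column reached the lowest Mut4 column, again a matter of the ratio and the column constants. The ratio was 0.54 (1.45-fold), and 396 of 12643 genes had a higher one. The gene lies on chromosome 7, from 155297776 to 155310235. INSIG2, its paralogue, which does not depend on SREBP2 in the same way, was on the other side, at 3.82 FPKM in Mut4 against 4.57 in ZHX2 cells (−0.21). INSIG1 was thus 16.02 times INSIG2 in Mut4 cells and 9.15 times in ZHX2 cells, a 1.75-fold difference free of column constants and pseudocount. They had the highest and lowest ratio of the regulators.

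SREBF2, which encodes SREBP2, differed far less than INSIG1. SREBF2 measured 54.5, 57.3 and 65.8 FPKM in the Mut4 columns and 53.5, 71.3 and 48.0 in the ZHX2 columns. The ZHX2 columns enclosed those of Mut4 cells on both sides, as their constants span more, and this is no replicate spread. The ratio was 0.040, close to the median of all measured genes. With columns rescaled to TPM it was −0.0050, where that median was −0.016. Without ZHX2 replicate 3 it was −0.074, where the median was −0.072. That was the lowest of the 4 alternatives of 13 that put it below 0. SCAP, the escort of SREBP2, was at 7.79 and 7.51 FPKM (0.048). It was also below 0 without Mut4 replicate 3 or ZHX2 replicate 3, to −0.054, when the median of all measured genes was −0.044 and −0.072. SREBF2 was 7.596 times SCAP in Mut4 cells and 7.67 times in ZHX2 cells, nearly the same balance. The level of SREBF2 mRNA does not show how much SREBP2 protein was cut or reached the nucleus, which was not measured.

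Genes that move or store cholesterol inside the cell lay on the ZHX2 side. All 4 had ratios below 0, against 46.2% of all measured genes, with a median of −0.19. SOAT1, which esterifies cholesterol for storage in droplets, had the lowest ratio of the 31 genes. SOAT1 measured 5.12, 5.39 and 6.18 FPKM in the Mut4 columns and 6.60, 8.80 and 5.92 in the ZHX2 columns. The highest Mut4 column lay above the lowest ZHX2 column, so the groups overlapped, which depends on the ratio and the column constants alone. The ratio was −0.31, or 1.24-fold lower in Mut4 cells, and 1326 of 12643 genes had a lower one. NPC2, which hands cholesterol from lipoproteins to NPC1 in the lysosome, was at 7.14 FPKM in Mut4 against 8.79 in ZHX2 cells (−0.27). NPC1, the membrane protein that exports it, was at 3.64 and 3.99 FPKM (−0.11). STARD4, a soluble sterol carrier that SREBP2 induces, was at 8.97 and 9.30 FPKM (−0.047). The ratios of NPC1 and STARD4 were 0.038 and 0.12 without ZHX2 replicate 2, when the median of all measured genes was 0.17. That of STARD4 was 0.0034 without Mut4 replicate 1, when this median was 0.069.

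The LXR-driven genes were on the Mut4 side. ABCG1, which exports cholesterol to high-density lipoprotein, had the highest ratio of the 31 genes. ABCG1 measured 4.43, 4.67 and 5.35 FPKM in the Mut4 columns and 2.75, 3.66 and 2.47 in the ZHX2 columns. Every Mut4 column lay above every ZHX2 column, but with columns that are multiples of one another this adds nothing to the ratio. The ratio was 0.56 (1.47-fold), and 364 of 12643 genes had a higher one. With a pseudocount of 0.1 it was 0.68, past 1.5-fold. ABCG1 lies on chromosome 21, from 42199689 to 42297244. MYLIP, on chromosome 6 from 16129125 to 16148248, measured 13.2, 13.9 and 15.95 FPKM in the Mut4 columns and 9.06, 12.1 and 8.13 in the ZHX2 columns. Its groups did not overlap either. The ratio was 0.51 (1.43-fold), with 461 genes higher.

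ABCA1, which loads cholesterol and phospholipid onto apolipoprotein A-I, was scarcely expressed. ABCA1 measured 1.03, 1.09 and 1.246 FPKM in the Mut4 columns and 0.737, 0.982 and 0.661 in the ZHX2 columns. The groups did not overlap, but the lowest Mut4 column and the highest ZHX2 column lay close together. The column constants and the ratio alone set this. The ratio was 0.24 with the pseudocount of 1 and 0.45 with a pseudocount of 0.1, and 99.0% of measured genes had a higher mean level. ABCG1 was 4.30 times ABCA1 in Mut4 cells and 3.73 times in ZHX2 cells. Of the receptors, NR1H2 (LXRβ, the form found in most tissues) was at 13.3 FPKM in Mut4 against 11.99 in ZHX2 cells (0.13). NR1H3 (LXRα, abundant in liver and macrophages) was below the filter, at 0.695 and 0.744 FPKM (−0.041). NR1H2 was 19.1 times NR1H3 in Mut4 cells and 16.1 times in ZHX2 cells.

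**Figure D3:**
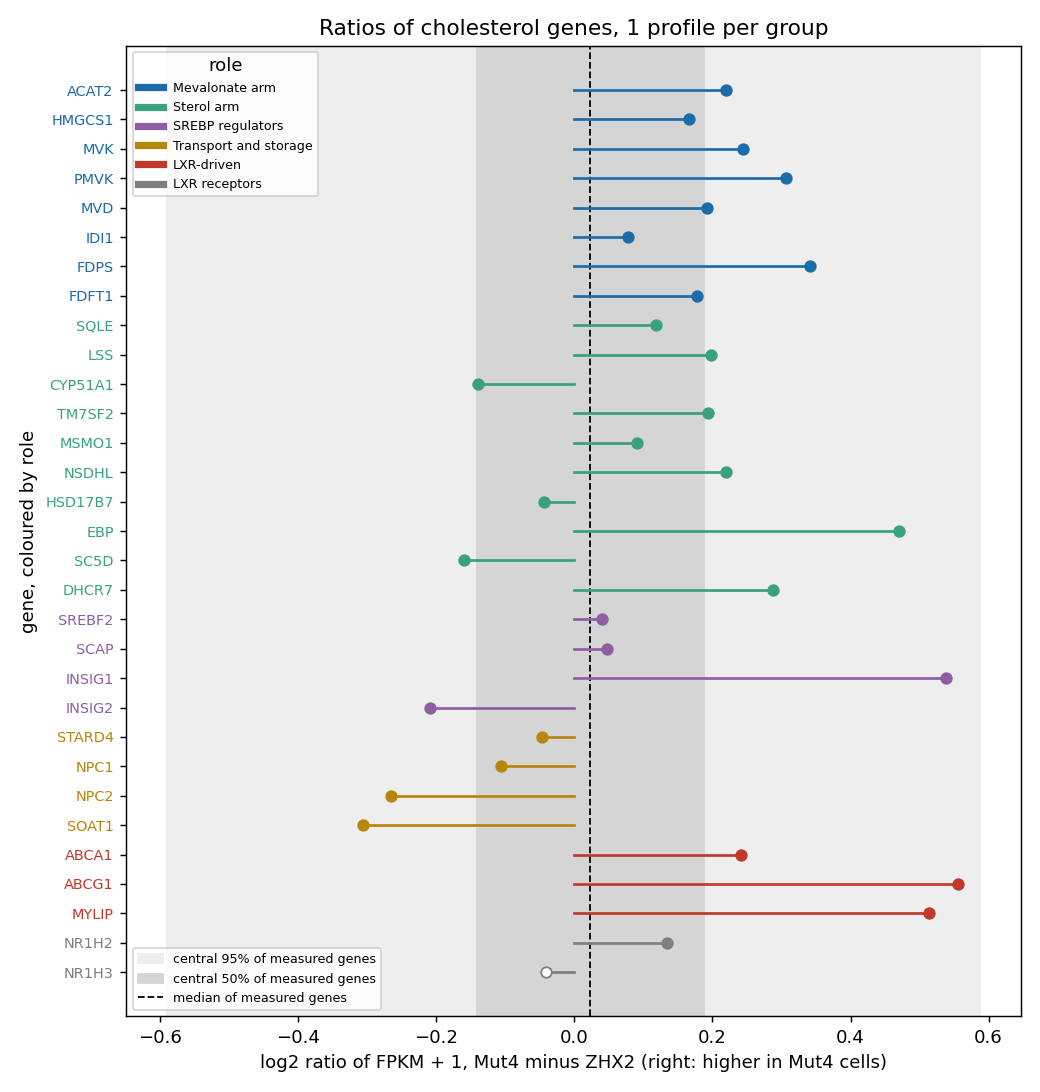
Log2 ratio of FPKM + 1, Mut4 minus ZHX2, for the 31 genes coloured by role, with the central 50% (dark grey) and central 95% (light grey) of all measured genes and their median (dashed). The open circle is NR1H3, below the filter. ABCG1, INSIG1, MYLIP and EBP reach 0.56 to 0.47, the transport and storage genes lie below 0, and all 31 lie within the central 95%.

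Set side by side, the SREBP2-driven genes and the LXR-driven genes both had median ratios above 0, where the median of all measured genes was 0.023. The 23 SREBP2-driven genes (enzymes, INSIG1, STARD4, SREBF2, NPC1 and NPC2) had a median of 0.18, with 17 above 0, against 53.8% of all measured genes. Of them 3 were at least 0.32 higher in Mut4 cells, a share near the 11.8% of all measured genes. The 3 LXR-driven genes had a median of 0.51, or 0.53 without ABCA1, and 2 were at least 0.32 higher, against the same 11.8%. The SREBP2-driven median was thus 0.34 below the LXR-driven one. It was 0.37 below with a pseudocount of 0.1 or with TPM, and 0.33 below after quantile normalization. The other alternatives shift both medians nearly alike or, with the filter at 5 FPKM, leave MYLIP as the only LXR-driven gene, so they say little about this difference. With 3 genes on one side and no replicates this difference has no test. The medians themselves move with the column constants: 0.063 to 0.35 for SREBP2-driven and 0.41 to 0.68 for LXR-driven genes over the alternatives. ABCG1 relative to SOAT1 was 0.866 in Mut4 and 0.416 in ZHX2 cells, a 2.08-fold difference within profiles. They had the highest and the lowest ratio of the 31 genes and were paired after these were seen. The difference describes that pair alone and not export against storage. ABCG1 relative to HMGCS1 differed 1.44-fold, from 0.270 to 0.187.

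**Figure D4:**
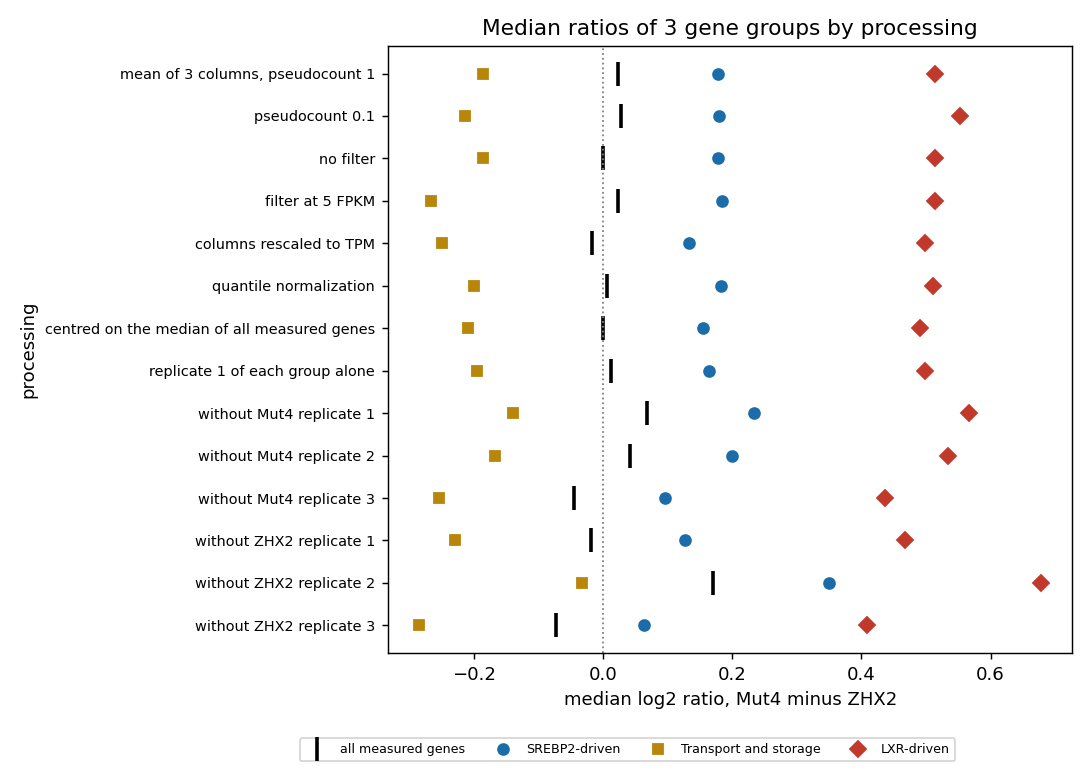
Median log2 ratio of the SREBP2-driven, transport and storage, and LXR-driven genes and of all measured genes, under each processing choice. The marks of a row shift together, most without ZHX2 replicate 2, where the median of all genes is 0.17. Rows that leave out a column, use replicate 1 alone or centre the values scale or shift all genes alike, so they can hardly change the order of the groups.

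In the authors' deposited table, ABCG1 was the only one of the 31 genes with a q under 0.05 (q = 0.0294, p = 0.00146), against 695 of 12643 measured genes (5.50%). The authors' deposited table gave p-values under 0.05 for 5 of the 31 genes (16.1%), against 8.81% of all 29571 rows. Only 42.8% of those rows were measured genes, so these shares are not alike, and the share among measured genes was not computed. For q under 0.05 the share was 3.10% of all rows. Besides that of ABCG1, the q-values of the 5 were 0.114 for INSIG1, 0.116 for MYLIP, 0.189 for EBP and 0.217 for ABCA1. No member was marked significant in the authors' deposited table. No source used here says how these p-values were obtained from columns that are multiples of one another.

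Other genes of sterol metabolism showed no common direction. Of 8 genes of SREBP processing and sterol-regulated degradation 3 were above 0, against 53.8% of all measured genes, with a median of −0.11. SPRING1, a Golgi protein needed for SREBP processing, was lowest of the 8 (7.39 FPKM in Mut4 against 8.99 in ZHX2 cells, −0.25), and ERLIN2, of the degradation complex, highest (0.081). Of 11 genes of the isoprenoid branches 5 were above 0 (median −0.014), against the same 53.8%. The 11 ratios ranged from NUS1, of dolichol synthesis (−0.36), to RABGGTA, a prenyltransferase subunit for Rab proteins (0.38). Among 14 genes of sterol trafficking and uptake, 8 were above 0, against the same 53.8%, and 6 below (median 0.044). By at least 0.32 on the log2 scale, 4 were lower in Mut4 cells, against 9.42% of all measured genes. By that step 0 were higher, against 11.8%. The 4 were VLDLR, a lipoprotein receptor (1.502 and 2.38 FPKM, −0.43), the sterol sensor OSBP (18.1 and 23.9 FPKM, −0.38), and the cholesteryl ester hydrolases NCEH1 (−0.37) and LIPA (−0.37). LRP8, another lipoprotein receptor, was highest in that list (0.25).

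LXR partners and further LXR targets had 6 measured genes of the 9 with a row, with a median of 0.20. SREBF1, an LXR target that drives fatty acid synthesis, was highest at 26.5 FPKM in Mut4 against 13.7 in ZHX2 cells (0.91, 1.87-fold). SREBF2 was accordingly 2.24 times SREBF1 in Mut4 cells and 4.21 times in ZHX2 cells. LPCAT3, a phospholipid acyltransferase that LXR induces, followed at 4.21 and 3.13 FPKM (0.34). RXRA, a partner receptor of LXR, was lowest of the 6 (1.69 and 1.89 FPKM, −0.10). Of the other sterol and ketone enzymes 6 were measured (median 0.084). CH25H, which makes an oxysterol that restrains SREBP2 and activates LXR, was at 0.245 FPKM in Mut4 against 1.53 in ZHX2 cells (−1.02), and it passed the filter through its ZHX2 columns alone. ERG28, a scaffold of the demethylation enzymes, was highest (17.9 and 14.2 FPKM, 0.32). Genes that the table annotates to steroid biosynthesis in KEGG and that are not among the 31 had a median of 0.088 over 5 measured genes. Those annotated to terpenoid backbone biosynthesis had −0.015 over 13, and those annotated to cholesterol metabolism 0.041 over 17.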

How the data were processed

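RNA was measured in 6 labelled libraries, 3 of DB_ZHX2 and 3 of DB_ZHX2_Mut4. Per the labels' protocols, polyadenylated RNA was captured on oligo(dT) beads after TRIzol extraction, and dUTP marked the second strand. Versions and settings of fastp, HISAT2, StringTie and edgeR, named with GRCh38 per the submitters' processing notes, are not given there. The deposited table gives FPKM per gene and column, per the file headers. It also gives the authors' linear ratio, which is the level of DB_ZHX2 replicate 1 over DB_ZHX2_Mut4 replicate 1, its log2 value, and the authors' p-value and q-value, per the file headers. The p-value and q-value were used only to describe the authors' table. The ratio and its log2 value also served to find rows that did not match. The direction column was not used.

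The columns of a group were constant multiples of one another, so each group was counted as 1 sample, and the planned limma fit could not be made, for lack of independent samples. Levels are the mean of the 3 columns, which rescales a profile and adds no information. Ratios used a pseudocount of 1 and genes with at least 1 FPKM in at least 3 columns. In 3 rows the FPKM and the deposited ratio did not match, and these rows were left out, leaving 12643 genes. In 15 symbols "up" had become "down", and 15 were restored by gene ID; no cholesterol gene was among them. The 31 genes, their groups and the steps of 1.5-fold and 0.32 on the log2 scale were chosen with earlier results of these data known. All 31 genes were named, and of the other lists the highest and lowest, with VLDLR, OSBP, NCEH1, LIPA, LPCAT3 and the comparisons within profiles chosen after their values were seen. Some genes of the other lists and of the B-cell markers are not reported here, and counts, sums and medians of those lists are without them. Gene coordinates are from GENCODE 29 on GRCh38, and promoter sequences from RefSeq on GRCh38.p14. The loose LXR repeat was chosen after the windows were searched for the other motifs. Calculations used Python 3.11.15, numpy 2.4.6, pandas 2.3.3 and matplotlib 3.10.9, and the ratio step was tested on simulated data. Without counts, no counting intervals are given. In bulk RNA, fewer cells of a type and less RNA per cell cannot be told apart.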

Additional observations from a re-analysis of the deposited data

How the results depend on the processing

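No paired analysis was possible because 1 profile per group leaves no pairs of libraries, and no test was run. The alternatives were a pseudocount of 0.1, no filter, a filter at 5 FPKM, columns rescaled to TPM, quantile normalization, centring on the median of all genes, replicate 1 alone, and leaving out each column. Leaving out a column multiplies all genes of a group alike: the median of all measured genes was 0.17 without ZHX2 replicate 2 and −0.072 without ZHX2 replicate 3.

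Members at least 1.5-fold higher in Mut4 cells numbered 1 instead of 0 with a pseudocount of 0.1 and with TPM. The shares of all measured genes were then 5.47% and 3.72%. When a column was left out such members numbered 0 to 4, with 4 without ZHX2 replicate 2, where the share was 5.69%. Members lower by at least 0.32 on the log2 scale numbered 1 instead of 0 with a pseudocount of 0.1, where 12.9% of all measured genes were lower. They also numbered 1 after centring, where that share was not computed. With TPM they numbered 2, where the share was 14.4%. When a column was left out they numbered 0 to 2. The 2 came without Mut4 replicate 3 or ZHX2 replicate 3, where the shares were 13.7% and 16.1%. Members higher by that step numbered 4 to 15 when a column was left out, with 15 without ZHX2 replicate 2, when 26.7% of all measured genes passed that fold. When a column was left out, medians ranged from 0.0973 to 0.36 for the mevalonate arm, 0.0474 to 0.32 for the sterol arm, −0.0641 to 0.21 for the SREBP regulators, −0.28 to −0.0326 for transport and storage, 0.41 to 0.68 for LXR-driven and 0.0634 to 0.35 for SREBP2-driven genes. With the filter at 5 FPKM, MYLIP was the only LXR-driven gene left. Depth is unknown, which limits what can be said of ABCA1 and NR1H3, near 1 FPKM.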
